A study of Homo sapiens with 6 samples.

Results

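SR proteins, hnRNPs, the SF3A and SF3B subunits of the U2 snRNP and the U2AF subunits are the abundant RNA-binding proteins with which a cell chooses and marks its splice sites. Their genes were taken from the table of normalized counts by symbol: names starting with SRSF and a number, HNRNP, HNRP, SF3A or SF3B and a number, or U2AF. Of 23228 gene names, 50 fitted these patterns, and 3 names of pseudogenes (HNRNPA1P10, HNRNPA3P1 and HNRNPKP3) were left out, which left 47 genes: 12 SR protein genes, 23 hnRNP genes, 9 SF3 subunit genes and 3 U2AF genes. The RNA came from SaOS-2, a human osteosarcoma line that the study describes as null for RB and p53, carrying a tetracycline-inducible p21 vector in both groups. The 3 p21 OFF libraries came from untreated cells and the 3 p21 ON libraries from cells given 1 μg/ml doxycycline for 24 h by the sample labels. p21 inhibits cyclin-dependent kinases, and the study used the line to ask which cell cycle genes p21 can repress where RB is missing. The vector line was a gift from another laboratory, whether it is a single clone is not given in the sources used here, and cells that received the drug but carried no vector were not analysed here, so effects of the drug and of p21 cannot be told apart.

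Splicing removes introns through a series of complexes. U2AF reads the end of the intron, with its large subunit on the pyrimidine tract and its small subunit on the AG, and recruits the U2 snRNP, whose SF3A and SF3B subunits hold it at the branch point. SR proteins bind exons through RNA recognition motifs and promote the use of nearby splice sites through a domain rich in arginine and serine. hnRNPs coat nascent transcripts and often act against SR proteins, so the balance of both sets which exons are kept. Many SR protein and hnRNP genes control their own level through unproductive splicing of poison exons, whose transcripts are removed by nonsense-mediated decay. Gene-level counts do not separate productive from unproductive transcripts.

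The libraries held 12795490 to 21975045 reads on genes, recovered from the normalized counts. CDKN1A, the gene of p21, had 1257, 1187 and 1355 in p21 OFF replicates 1 to 3 and 40470.4, 43863 and 46739 in p21 ON replicates 1 to 3, which is a rise of 5.11 ± 0.067 (SE) in log2 units (limma, adjusted p = 1.12e-19), so each library carried the state that its label gives. An exact permutation test, two-sided, gave p = 0.1, which is the lowest value possible for 3 libraries against 3. Osteoblast markers bore out the labelled cell type in part: RUNX2, SP7, ALPL, COL1A1 and SPARC were well expressed, with RUNX2 at 3412 ± 362 to 3403 ± 170.4 from p21 OFF to p21 ON (SD, n = 3 each), IBSP had 139, 123 and 126 with p21 OFF and 95.5, 99.9 and 102 with p21 ON, SPP1 was under 3 normalized counts in every library and BGLAP was at 0. Of the markers of other cells, CD3E, HBB, KRT19 and CDH1 were at 0 or under 4 in every library, while the epithelial gene EPCAM had 374, 301 and 316 with p21 OFF and 325, 323 and 292 with p21 ON. KRT18 had means of 2066 and 2259 with p21 OFF and ON and KRT8 172 and 147, PTPRC was at 6.28, 7.03 and 4.43 with p21 OFF and 8.15, 3.66 and 10.5 with p21 ON, PECAM1 at 16.3, 12.5 and 8.87 with p21 OFF and 15.1, 11 and 14.3 with p21 ON, and VWF rose from 53.6 ± 2 to 77.2 ± 14.2 (SD, n = 3 each; limma adjusted p = 0.0333). Their part in the changes below was not tested. Whether the replicates were separate cultures is not stated in the labels, so p-values measure the spread between these libraries.

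Most of the splicing factor genes were slightly lower with p21 ON, and fewer of them by enough to be called. Values are DESeq2-normalized counts, and changes are log2 fold changes of p21 ON against p21 OFF on the log2(normalized count + 1) scale, tested with limma over 13255 genes whose mean reached 10 and called at an adjusted p under 0.05 (Benjamini-Hochberg). Of the 47 genes, 44 were tested, and 13 fell, 1 rose and 30 did not pass the threshold. The 13 are 29.5% of the tested members, where 12.7% of all genes tested fell. The single rise, of SRSF12, is 2.27%, where 10.5% of all genes rose. In all, 38 of the 44 had a log2 fold change below 0, against 48.9% of all genes, and their median was -0.13 (interquartile range -0.21 to -0.072) against 0.0056 for all genes tested. The 3 p21 ON libraries lay wholly below the 3 p21 OFF libraries for 27 members and wholly above for 3, where 21.3% and 19.1% of all genes do so (31.7% and 14.4% of the abundant genes described next). Members are abundant, and among the 4092 tested genes with a mean of at least 1000, 19.6% fell, 8.16% rose and 57.9% had a negative log2 fold change. Of the 36 members with such a mean, 12 (33.3%) fell. In bulk RNA, fewer cells in a given state and less RNA per cell cannot be told apart.

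The changes were small. The 13 genes fell by 12.9 to 19.5% of the p21 OFF level, and the standard error of a log2 fold change had a median of 0.062 over the tested members. Of the 30 members that were not called, 10 had a 95% interval wholly below 0, 1 had an interval wholly above 0 and 19 had an interval that held 0. The number of falls moved with the libraries used: it was 5 without p21 ON replicate 1, 9 without p21 ON replicate 3, 14 without p21 ON replicate 2, and it rose to 16 when p21 OFF replicate 1 was left out. SRSF1, HNRNPR, HNRNPH3, HNRNPH1 and HNRNPM were called lower in all 16 alternative analyses.

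**Figure D1:**
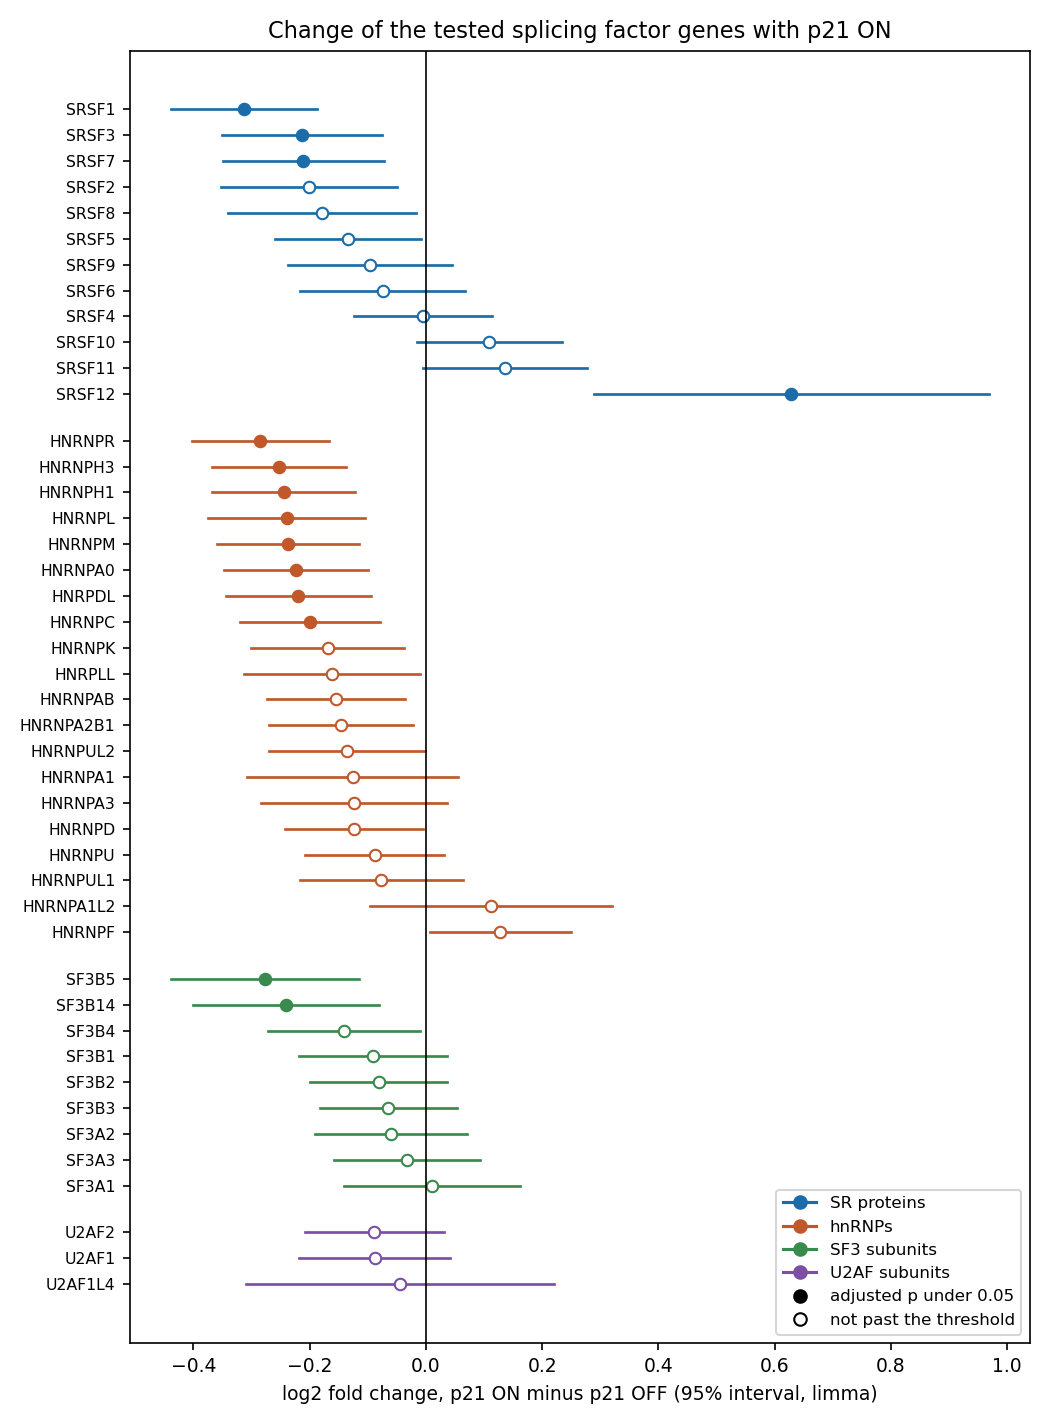
Each point is the log2 fold change of a tested member, p21 ON minus p21 OFF (horizontal axis), with its 95% interval from limma; colours give the 4 gene groups and filled points passed an adjusted p under 0.05. Of the 44 points, 38 lie left of 0, and SRSF12 at 0.63 stands far to the right of all others.

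Taken per kb of exon of the canonical transcript, the levels of the tested members ran from 17.8 normalized counts per kb for SRSF12 to 6458 for HNRNPUL1, with a median of 1106. HNRNPUL1, a relative of the scaffold protein HNRNPU, had the highest level, with normalized counts of 23812, 26659 and 27653 in p21 OFF replicates 1 to 3 and 23919.7, 24649 and 25385 in p21 ON replicates 1 to 3. Its p21 OFF libraries were further apart from each other than the group means, and the groups overlapped. HNRNPA2B1, an A/B-type hnRNP, came next at 6157 per kb. HNRNPH1 followed at 4559.9 per kb, SF3B4 at 4409.7, SRSF2 at 3747 and U2AF2 at 3506. HNRNPA1, usually counted among the most abundant hnRNPs, had only 75.8 per kb and 291, 298 and 299 with p21 OFF and 283, 257 and 275 with p21 ON as normalized counts. The annotation names 74 pseudogenes of HNRNPA1, 16 of HNRNPA3, 9 of HNRNPC, 5 each of HNRNPK and SRSF3 and 4 of HNRNPDL, and how reads shared with such copies were counted is not given in the sources used here, so the levels of these genes are uncertain.

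**Figure D2:**
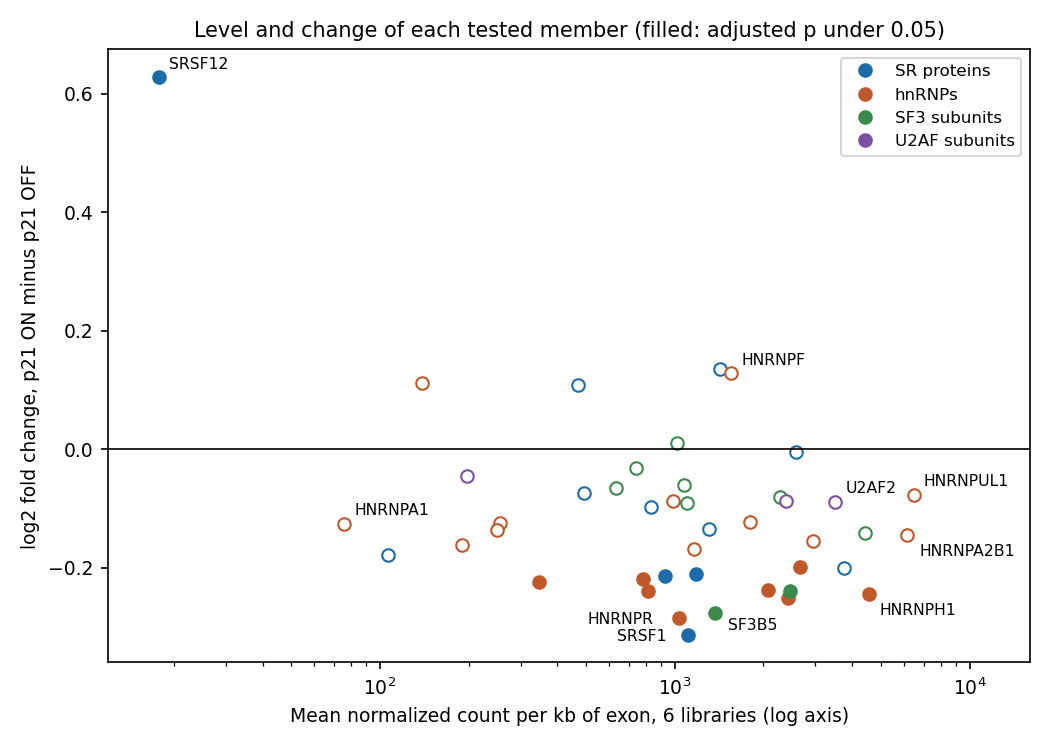
Each point is a tested member, with its mean normalized count per kb of exon over the 6 libraries (horizontal log axis) and its log2 fold change (vertical axis); filled points passed an adjusted p under 0.05. The falls that were called lie between 345 and 4559.9 per kb, and the single rise, SRSF12, is the member with the lowest level, 17.8 per kb.

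Of the 12 SR protein genes, 3 fell, 1 rose and 8 were not called, with a median log2 fold change of -0.12. The 3 are 25%, where 12.7% of all genes tested and 19.6% of those with a mean of at least 1000 fell. The 1 rise is 8.33%, where 10.5% of all genes rose. Under library size scaling 1 of the 12 fell (8.33%, against 9.01% of all genes). SRSF1 (chr17:56078280-56084707, minus strand, GRCh37), the founding SR protein and a regulator of exon choice, had 6934, 6312 and 6444 in p21 OFF replicates 1 to 3 and 5302, 5459.9 and 5080.0 in p21 ON replicates 1 to 3. Even the highest p21 ON library was lower than the lowest p21 OFF library, and the level fell by 19.5%, from 6563 ± 328 to 5280.5 ± 191 (SD, n = 3 each), or -0.31 on the log2 scale (95% interval -0.44 to -0.19, adjusted p = 0.0012, limma). This was the largest fall of any member. SRSF3 (chr6:36562130-36573377, plus strand), the smallest SR protein, which also links splicing to mRNA export, had 4592, 3954 and 4068 with p21 OFF and 3601, 3788 and 3470.3 with p21 ON and changed by -0.21 on the log2 scale (limma adjusted p = 0.025). SRSF7 (chr2:38970741-38978636, minus strand), a close relative of SRSF3 that carries a zinc knuckle, had 3224, 2923 and 2803 with p21 OFF and 2565, 2712 and 2449 with p21 ON and changed by -0.21 on the log2 scale (limma adjusted p = 0.0272). In both genes p21 OFF replicate 1 was the highest library and the groups did not overlap. Neither was called without p21 ON replicate 1, without p21 ON replicate 3 or when scaled only by library size.

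SRSF2, a SR protein that recognises both C-rich and G-rich exonic motifs, missed the threshold narrowly. It had 8527, 7437 and 6781 in p21 OFF replicates 1 to 3 and 6760.2, 6455 and 6484 in p21 ON replicates 1 to 3, again with p21 OFF replicate 1 far above the others and with no overlap between the groups. Its log2 fold change was -0.20 (95% interval -0.35 to -0.05, adjusted p = 0.0507, limma), and edgeR, with its quasi-likelihood test on recovered reads, called it lower (adjusted p = 0.0479). SRSF8, a retrogene related to SRSF2, had 509.9, 463 and 485 with p21 OFF and 445, 424 and 419 with p21 ON, and SRSF5 had 2139, 2022 and 1982 with p21 OFF and 1832, 1868 and 1894 with p21 ON. Their log2 fold changes of -0.18 and -0.13 were not called, although the groups did not overlap in either, and SRSF8 was called lower with the length trend removed. SRSF9 and SRSF6 had -0.097 and -0.075, with overlapping groups, and the value of SRSF9 turned to 0.021 with the length trend removed. SRSF4, one of the long SR proteins, had 6146, 5869 and 5769.9 with p21 OFF and 5861, 5863 and 5993 with p21 ON, and its difference of -0.0051 had a 95% interval of -0.12 to 0.11.

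The remaining SR protein genes went the other way. SRSF10, which represses splicing when dephosphorylated in mitosis or heat shock, had 3584, 3435 and 3385 with p21 OFF and 3948, 3665 and 3610.0 with p21 ON, and SRSF11 had 5860.0, 5071 and 5185 with p21 OFF and 6227, 5511 and 5956 with p21 ON. Neither was called, with log2 fold changes of 0.11 (95% interval -0.016 to 0.23), which turned to -0.014 with the length trend removed, and 0.14 (95% interval -0.0053 to 0.28), which was called higher without p21 OFF replicate 1. SRSF12 (chr6:89805678-89827790, minus strand), a close relative of SRSF10, is weakly expressed here. Its normalized counts were 47.7, 46.9 and 54.7 in p21 OFF replicates 1 to 3 and 82.7, 64.6 and 86.5 in p21 ON replicates 1 to 3, with every p21 ON library above every p21 OFF library. The log2 fold change was 0.63 (standard error 0.16, 95% interval 0.29 to 0.97, adjusted p = 0.00981, limma), and it was not called without p21 ON replicate 1 (0.58) or without p21 ON replicate 3 (0.55). Thus the relatives SRSF10 and SRSF12, with SRSF11, were the SR protein genes with values above 0, while SRSF1, SRSF2, SRSF3 and SRSF7 lay lowest.

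Of the 23 hnRNP genes, 20 were tested, and 8 fell, none rose and 12 were not called (limma, adjusted p under 0.05; at an unadjusted p under 0.05, 1 rose, HNRNPF, and by edgeR and DESeq2 none rose). The 8 are 40%, where 12.7% of all genes tested and 19.6% of those with a mean of at least 1000 fell. Under library size scaling 7 of the 20 fell (35%, against 9.01% of all genes). The median log2 fold change of the hnRNP genes in the main comparison was -0.16. Without p21 ON replicate 1 only 4 were called lower. HNRNPR (chr1:23630264-23670829, minus strand), a relative of SYNCRIP found on mRNA in nucleus and cytoplasm, had 8942, 8696 and 8819.6 in p21 OFF replicates 1 to 3 and 7028, 7455 and 7236 in p21 ON replicates 1 to 3. The groups stood well apart, with a change from 8819 ± 123 to 7239.5 ± 213 (SD, n = 3 each), or -0.29 on the log2 scale (95% interval -0.40 to -0.17, adjusted p = 0.00157, limma). In the H/F family, which binds runs of G, HNRNPH3 (chr10:70090931-70102950, plus strand) had 6169, 6141 and 6289 with p21 OFF and 5126, 5238 and 5252 with p21 ON and HNRNPH1 (chr5:179041179-179061785, minus strand) had 11659.7, 10970.3 and 10614 with p21 OFF and 9482, 9428 and 9131 with p21 ON. HNRNPH3 and HNRNPH1 fell by 16 and 15.6% (adjusted p = 0.00341 and 0.00639, limma). Their relative HNRNPF had 3823, 3885 and 3749 with p21 OFF and 4048, 4383 and 4097 with p21 ON, every p21 ON library above every p21 OFF library, with a log2 fold change of 0.13 that was not called (95% interval 0.0067 to 0.25, adjusted p = 0.116, limma). It was called higher when scaled only by library size and with the length trend removed. The difference between HNRNPF and its relatives was not tested. HNRNPH2 had 5.02, 3.12 and 1.48 with p21 OFF and 5.82, 7.31 and 7.6 with p21 ON normalized counts and was not tested, and its exons are shared with the annotated read-through gene RPL36A-HNRNPH2.

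HNRNPM (chr19:8509651-8553998, plus strand), a splicing regulator with several RNA recognition motifs, had 5802, 5478 and 5329 with p21 OFF and 4668, 4835 and 4580.2 with p21 ON and changed by -0.24 on the log2 scale (limma adjusted p = 0.00728). HNRNPL (chr19:39327010-39342987, minus strand), which binds CA repeats, had 1908, 1851 and 1886 with p21 OFF and 1473, 1651 and 1663 with p21 ON and fell by 15.3% (adjusted p = 0.0123, limma). Its p21 ON replicate 1 was the lowest, and without that library HNRNPL was not called (log2 fold change -0.18). The close relative HNRPLL, now HNRNPLL, had 821, 836 and 841 with p21 OFF and 702, 810.3 and 725 with p21 ON and -0.16, not called except without p21 ON replicate 2 and with the length trend removed. HNRNPC (chr14:21677295-21737653, minus strand), which binds U tracts and keeps U2AF off cryptic exons, had 9403, 8672 and 8913 with p21 OFF and 7796, 7961 and 7737 with p21 ON and changed by -0.20 on the log2 scale (limma adjusted p = 0.0181). It was not called without p21 ON replicate 1, without p21 ON replicate 3 or when scaled only by library size, and HNRNPCL1, a copy of it, was at 0 in all libraries.

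In the A/B and D families, which bind AU-rich or AG-containing sequences, HNRNPA0 (chr5:137081340-137090052, minus strand) had 3293, 3257 and 3175 with p21 OFF and 2640.3, 2783 and 2911 with p21 ON and fell by 14.4% (adjusted p = 0.0115, limma). HNRPDL, now HNRNPDL (chr4:83343718-83351615, minus strand), had 3895, 3571 and 3511 with p21 OFF and 3109, 3116 and 3193 with p21 ON and fell by 14.1% (adjusted p = 0.0135, limma). Neither was called without p21 ON replicate 1. HNRNPA2B1, the most abundant of these, had 23959, 23281 and 23153 with p21 OFF and 21033, 21829.9 and 20779 with p21 ON, with no overlap between the groups, but its log2 fold change of -0.15 (95% interval -0.27 to -0.022) had an adjusted p of 0.0806 by limma. It was called lower by DESeq2 on recovered reads (adjusted p = 0.049) and with the length trend removed (limma adjusted p = 0.0165). HNRNPAB with -0.15, HNRNPD with -0.12 and HNRNPA1 with -0.13 were likewise below in every library and not called, though HNRNPAB was called without p21 OFF replicate 1. HNRNPA3 had -0.12 with overlapping groups, and -0.20 with the length trend removed, where it was called. HNRNPA1L2, an intronless copy of HNRNPA1, was the other hnRNP gene with a value above 0, 0.11 (95% interval -0.096 to 0.32).

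HNRNPK, a KH-domain protein that binds C-rich sequence, had 3552, 3489 and 3645 with p21 OFF and 3026, 3432 and 3058 with p21 ON and a log2 fold change of -0.17 that was not called (adjusted p = 0.0576, limma). It was called lower without p21 ON replicate 2 (-0.23), without p21 OFF replicate 1 and with the length trend removed. The U family holds large scaffold proteins of the nucleus. HNRNPU had 6738, 7090.4 and 7171 with p21 OFF and 6544, 6738 and 6465 with p21 ON, with groups that met at the edge, and HNRNPUL2 had 1424, 1313 and 1356 with p21 OFF and 1194, 1284 and 1247 with p21 ON, with no overlap. The log2 fold changes were -0.088 (95% interval -0.21 to 0.031) for HNRNPU, -0.14 (95% interval -0.27 to -0.0018) for HNRNPUL2 and -0.077 (95% interval -0.22 to 0.064) for HNRNPUL1, and none was called (HNRNPUL1 was called lower without p21 OFF replicate 1, HNRNPU and HNRNPUL2 with the length trend removed). HNRNPUL2-BSCL2, a read-through gene whose exons are shared with both of its neighbours, was at 0 in all libraries.

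Of the 9 SF3 subunit genes, 2 fell and 7 were not called, with a median log2 fold change of -0.082. The 2 are 22.2%, where 12.7% of all genes tested and 19.6% of those with a mean of at least 1000 fell. Under library size scaling 1 of the 9 fell (11.1%, against 9.01% of all genes). Which subunits were called depended on the treatment of transcript length. SF3B5 (chr6:144416021-144416710, minus strand), a small subunit of SF3B, had 1116, 1057 and 935 in p21 OFF replicates 1 to 3 and 796, 859 and 907 in p21 ON replicates 1 to 3. It fell by 17.5% (95% interval of the log2 fold change -0.44 to -0.12, adjusted p = 0.0152, limma) and was not called without p21 ON replicate 1 (-0.23). SF3B14, now SF3B6 (chr2:24290456-24299243, minus strand), the subunit that contacts the branch point adenosine, had 1993, 1619 and 1606 with p21 OFF and 1459.8, 1477 and 1458 with p21 ON. Its p21 OFF replicate 1 was far above the other p21 OFF libraries, and without it the log2 fold change went from -0.24 to -0.14 and was not called. It was not called without any single p21 ON replicate or when scaled only by library size either. The canonical transcripts of SF3B5 and SF3B14 are 690 and 651 bases long, the shortest of all 47 genes, and with the trend of each library with transcript length removed neither was called (log2 fold changes -0.11 and -0.068). SF3B4 had 6848, 7612 and 6965 with p21 OFF and 6285, 6307 and 6834 with p21 ON and -0.14 (adjusted p = 0.107, limma), and was called lower without p21 OFF replicate 1. The large subunits SF3B1, which clamps the branch helix, SF3B2 and SF3B3 had log2 fold changes of -0.09 (95% interval -0.22 to 0.037), -0.082 (-0.20 to 0.036) and -0.065 (-0.18 to 0.053). SF3B1 and SF3B3 were called lower once the length trend was removed, at -0.18 and -0.23 (limma adjusted p = 0.00842 and 0.00289), and these were then the 2 SF3 genes that fell. SF3A1, SF3A2 and SF3A3 had 0.01 (-0.14 to 0.16), -0.06 (-0.19 to 0.071) and -0.033 (-0.16 to 0.093), with overlapping groups in each, and p21 OFF replicate 1 of SF3A1, at 4517, was the lowest of its 6 libraries. The signs of all 3 SF3A genes turned under at least 1 alternative.

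None of the 3 U2AF genes was called by limma, edgeR or DESeq2, and none had an unadjusted p under 0.05 in the limma fit. U2AF2, the large subunit, had 7538, 8059 and 7672 with p21 OFF and 7144, 7436 and 7292 with p21 ON, without overlap, and a log2 fold change of -0.089 (95% interval -0.21 to 0.031). U2AF1, the small subunit, had 2455, 2332 and 2176 with p21 OFF and 2139.7, 2209 and 2194 with p21 ON and -0.088 (-0.22 to 0.041), and its relative U2AF1L4 had 162, 162 and 136 with p21 OFF and 144, 129 and 175 with p21 ON and -0.045 (-0.31 to 0.22). The sign of U2AF1 and of U2AF1L4 turned with the length trend removed, and so did the median of the 3 genes, from -0.088 to 0.053.

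**Figure D3:**
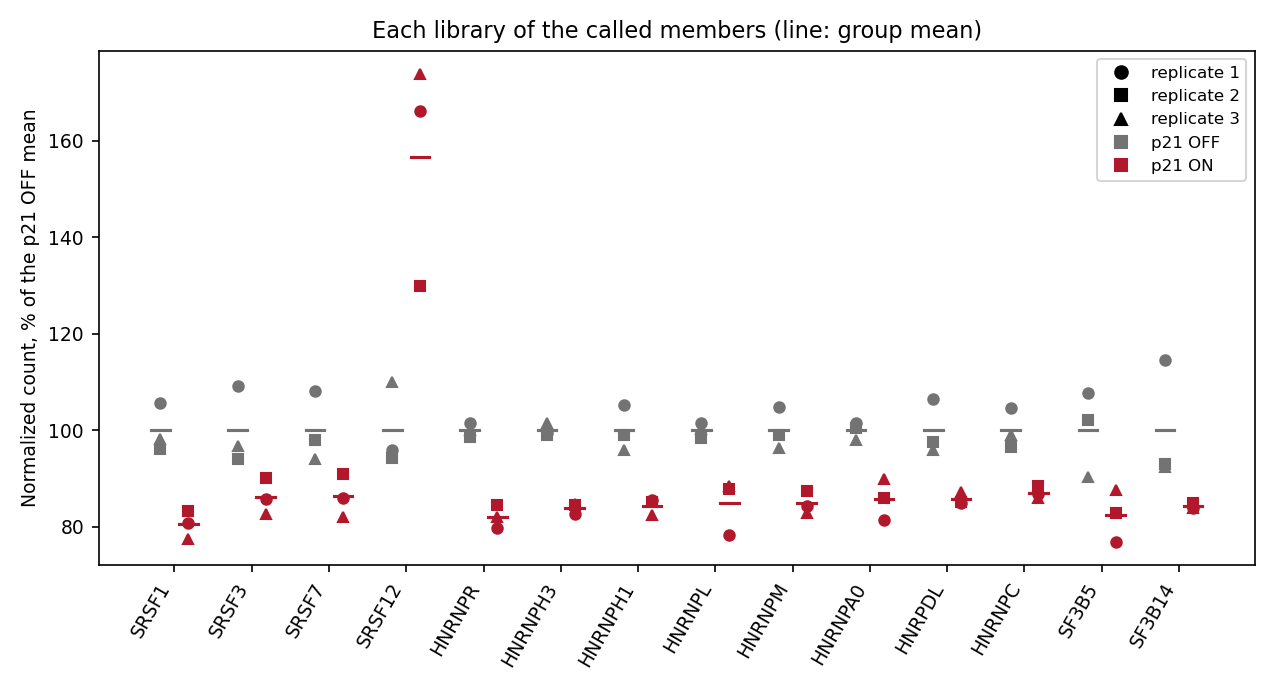
Normalized count of each library as a percentage of the gene's p21 OFF mean (vertical axis, which does not start at 0) for the 14 called members (horizontal axis); grey is p21 OFF, red is p21 ON, symbols give the replicate and lines the group means. In all 14 genes no p21 ON library overlaps the p21 OFF libraries. In every gene that fell except HNRNPH3, p21 OFF replicate 1 is the top grey point.

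The libraries did not share the members evenly. Of the 12 SR protein genes, 10 were highest among the p21 OFF libraries in replicate 1, which is also the p21 OFF library with the fewest reads, against 12 of the 20 tested hnRNP genes and 3 of the 9 SF3 genes. Among the p21 ON libraries, replicate 1 was the lowest for 22 of the 44 tested members and replicate 2 the highest for 20. All members together took 1.35 to 1.39% of the reads with p21 OFF and 1.276 to 1.299% with p21 ON. The hnRNP genes took 0.785 to 0.801% with p21 OFF and 0.726 to 0.7496% with p21 ON, so these ranges stood apart. For the SR protein genes the ranges were 0.246 to 0.280% and 0.244 to 0.254%, which overlap. For the SF3 genes they were 0.244 to 0.252% and 0.240 to 0.242%, and for the U2AF genes 0.0615 to 0.0646% and 0.0603 to 0.0621%.

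The study's lower-stringency G1/S gene list, whose genes peak early in the cell cycle, holds 8 of the 47 genes: SRSF1, SRSF2, SRSF7, SRSF10, HNRNPAB, HNRNPD, HNRNPR and HNRNPU. Of these, SRSF1, SRSF7 and HNRNPR fell (37.5%, against 12.7% of all genes tested) and 5 were not called. All 8 are abundant, with means of at least 2779. Of tested genes with a mean of at least 1000, 19.6% fell, and of members with such a mean 33.3% fell. The median log2 fold change of the 8 was -0.18, against -0.13 over all tested members. The study reported that p21 did not repress its high-stringency G1/S genes in this line, which is a different list. HNRNPAB had 5443, 5466 and 5624 with p21 OFF and 4756, 5052 and 5048 with p21 ON, and HNRNPD, an AU-rich element binding protein, had 5910.2, 5661 and 5704 with p21 OFF and 5106, 5414 and 5343 with p21 ON. In both the groups did not overlap, with adjusted p = 0.0563 and 0.122 by limma. The 8 genes are few, and no test of the list was made.

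Promoter windows from 250 bases before to 50 after the start were found in RefSeq (GRCh38.p14) for 44 of the 47 genes, not for HNRNPA1, SF3B3 and SRSF2, and were searched on both strands for the E2F site of G1/S promoters (TTTGGCGC, TTTCCCGC, TTTGCCGC or TTTCGCGC), the CHR of G2/M promoters (TTTGAA), the CCAAT box (CCAAT), an ETS site (CCGGAAG), an NRF1 site (its palindrome of 10 letters) and a TATA box (TATAAA). Where a gene had several windows, the one listed at the top was used. These 44 genes are not the 44 tested members, since they include the untested HNRNPCL1, HNRNPH2 and HNRNPUL2-BSCL2. None of these untested genes held the E2F, CHR, TATA or NRF1 letters. The E2F letters were found in 5 of the 44 (11.4%), HNRNPA3, HNRNPK, HNRPLL, SF3B1 and SRSF10, against 5.32% of the promoters of all genes tested and 3.33% of all promoters, and none of these 5 was called. No E2F match was found in the 13 genes that fell. With the length trend removed, HNRNPA3, HNRNPK, HNRPLL and SF3B1, 4 of the 5 genes with the E2F letters, were called lower. Under that setting 20 of the 44 tested members (45.5%) and 14.9% of all genes were called lower. The CHR letters were found in 2 of the 44 (4.55%), HNRNPR (at or after the start) and SRSF6, against 9.77% of the promoters of genes tested. The CCAAT box was found in 7 of the 13 that fell and in 8 of the 27 uncalled genes with a window, against 36.9% of the promoters of genes tested, and the ETS letters in 1 of 13 and 11 of 27, against 19%. The TATA letters were found in 5 of the 44 (11.4%), against 5.58%, and the NRF1 letters in 0 of the 44, against 2.29%. These counts are descriptions of letters in a window. The 250 bases before the start follow for 3 genes that fell and 2 genes with an E2F match that were not called in the main comparison, each written 5′ to 3′ on the strand of the gene, with matches in capitals.
SRSF3 (chr6:36594112-36594361, plus strand; CCAAT boxes and a TATA box): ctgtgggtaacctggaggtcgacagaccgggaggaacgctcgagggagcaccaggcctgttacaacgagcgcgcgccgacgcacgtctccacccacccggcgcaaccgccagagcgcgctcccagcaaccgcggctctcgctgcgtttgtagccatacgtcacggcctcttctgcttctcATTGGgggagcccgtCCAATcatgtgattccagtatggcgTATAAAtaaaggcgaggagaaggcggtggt
HNRNPC (chr14:21269443-21269692, minus strand; CCAAT boxes and a TATA box): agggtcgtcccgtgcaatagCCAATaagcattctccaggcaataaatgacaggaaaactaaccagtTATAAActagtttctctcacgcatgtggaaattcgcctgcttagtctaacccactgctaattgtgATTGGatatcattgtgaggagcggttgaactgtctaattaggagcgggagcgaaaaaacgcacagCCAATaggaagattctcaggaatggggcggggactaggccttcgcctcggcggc
HNRNPR (chr1:23344285-23344534, minus strand; CCAAT boxes): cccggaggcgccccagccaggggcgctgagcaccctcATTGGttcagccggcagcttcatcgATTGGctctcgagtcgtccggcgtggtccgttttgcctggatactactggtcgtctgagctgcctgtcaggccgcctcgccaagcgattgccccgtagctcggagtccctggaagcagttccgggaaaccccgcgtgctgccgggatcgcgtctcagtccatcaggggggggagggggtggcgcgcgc
SRSF10 (chr1:23980328-23980577, minus strand; E2F): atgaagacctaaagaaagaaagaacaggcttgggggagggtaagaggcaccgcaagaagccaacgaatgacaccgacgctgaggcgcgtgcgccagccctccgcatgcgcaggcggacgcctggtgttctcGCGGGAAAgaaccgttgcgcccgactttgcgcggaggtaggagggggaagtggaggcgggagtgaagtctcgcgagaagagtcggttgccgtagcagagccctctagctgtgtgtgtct
SF3B1 (chr2:197435029-197435278, minus strand; E2F): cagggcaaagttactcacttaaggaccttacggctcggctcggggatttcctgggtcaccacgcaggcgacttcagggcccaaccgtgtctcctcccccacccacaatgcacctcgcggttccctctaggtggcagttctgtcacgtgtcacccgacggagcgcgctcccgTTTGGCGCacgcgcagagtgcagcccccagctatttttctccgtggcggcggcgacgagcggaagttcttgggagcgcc

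In SRSF3 the TATA box lies at -30 to -25 from the start, with the CCAAT boxes at -70 to -66 and -55 to -51. In HNRNPC the TATA letters lie much further from the start, at -184 to -179. Whether they act as a TATA box was not tested. The E2F letters lie at -119 to -112 in SRSF10 and at -79 to -72 in SF3B1. In the 250 bases before the starts of SRSF1, the gene with the largest fall, and SRSF12, the gene that rose, none of these motifs was found.

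Transcript length moved with the changes of all genes, so it was set beside those of the members. Among all genes tested the median log2 fold change went from -0.12 in the shortest of 4 equal classes of transcript length (up to 2099 bases) through -0.030 and 0.026 to 0.11 in the longest, and the share that fell from 25.5 to 5.09%. In the same classes the members had medians of -0.13 (11 genes), -0.17 (13 genes), -0.13 (12 genes) and -0.11 (8 genes). Each class holds few members. In the shortest class 2 of the 11 members fell (18.2%, against 25.5% of all genes), and in the longest 3 of 8 (37.5%, against 5.09%). With the length trend removed from each library, 20 members were called lower and 2 higher, SRSF12 and HNRNPF, where 14.9% of all genes were called lower and 9.48% higher, and 11 of the 13 falls were called again. For the hnRNP genes the number called lower was then 14 of 20, with a median of -0.20.

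**Figure D4:**
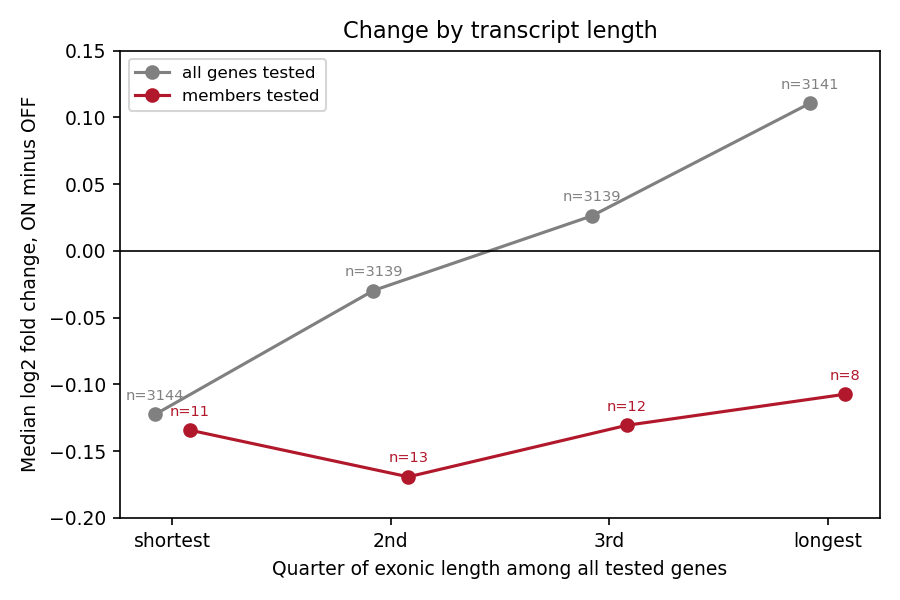
Median log2 fold change, p21 ON minus p21 OFF (vertical axis), of all tested genes (grey) and of the tested members (red) in 4 equal classes of exonic length of the canonical transcript (horizontal axis), with the number of genes at each point. The grey line climbs from -0.12 to 0.11, while the red points stay between -0.17 and -0.11.

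Overlapping annotation touches some values, since the libraries were stranded but the strand setting of the counting is not given in the sources used here. Exons of 17 of the 47 genes overlap an exon on the opposite strand, among them 3 of the 13 that fell, and the partners include CBX3 for HNRNPA2B1, TGFB1 for HNRNPUL1, COX20 for HNRNPU and RUFY2 for HNRNPH3. Of the genes that fell, SRSF1 and HNRNPL also overlap exons of another annotated protein-coding gene on the same strand. How reads in such overlaps were counted is likewise not given. The 12 tested members with no overlapping exon and no annotated pseudogene held 4 of the falls and the rise of SRSF12, and their median log2 fold change was -0.15.

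Other core components were read beside the members. Of 89 tested genes of the U1, U2, U4/U6.U5, Sm, LSM, Prp19 and minor spliceosome lists, 27 (30.3%, against 12.7% of all genes tested) fell and none rose (limma, adjusted p under 0.05). The median of the 89 was -0.15. At an unadjusted p under 0.05, 1 was higher, DDX46 (chosen after its value was seen), with 0.15, and edgeR and DESeq2 called 0 higher. The ring proteins that encircle the snRNAs had the lowest medians in the main comparison. In the Sm ring 5 of 7 fell, with a median of -0.31, and in the LSM ring of U6 5 of 6, with a median of -0.40. LSM3 went from 589 ± 73.5 to 328 ± 46.2 (SD, n = 3 each), or -0.84 on the log2 scale (adjusted p = 1.56e-05, limma). SNRPE and SNRPD2 of the Sm ring had -0.69 and -0.43, and LSM5 had -0.81. Removal of the length trend took the medians to -0.17 and -0.27 with 4 genes called lower in each, and the hnRNP members then had -0.20. Without p21 OFF replicate 1 the Sm median was -0.20, and without p21 ON replicate 1 only 3 Sm and 3 LSM genes were called. In the U1 snRNP 1 of 3 fell, SNRPC, with -0.44. Among other U2 and branch point proteins 5 of 15 fell, led by DNAJC8 with -0.29 and SNRPB2 with -0.28, but 0 without p21 ON replicate 1 and 1 without p21 ON replicate 3. In the tri-snRNP 8 of 19 fell, and PPIH, a cyclophilin bound to it, went from 141 ± 13.2 to 67.6 ± 4.86 (SD, n = 3 each), the largest fall of any gene on these lists (-1.04, adjusted p = 1.44e-05, limma). SNRNP27 followed with -0.31. The 8 became 4 with the replicate block or library size scaling, 2 without p21 ON replicate 1 and 3 without p21 ON replicate 3. Of 29 Prp19 complex and catalytic step genes 3 fell (10.3%, below the 12.7% of all genes), among them CWC15 with -0.46 and PPIL1 with -0.26, although 28 of the 29 had a value below 0. Their number was 1 by DESeq2 and 1 to 6 with a library left out. In the minor spliceosome, which removes the rare U12-type introns, none of 10 was called by limma, edgeR or DESeq2 (1 had an unadjusted p under 0.05, lower), and the median was 0.00036. With the length trend removed, 1 of these 10 and 1 of the U1 genes were called higher.

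**Figure D5:**
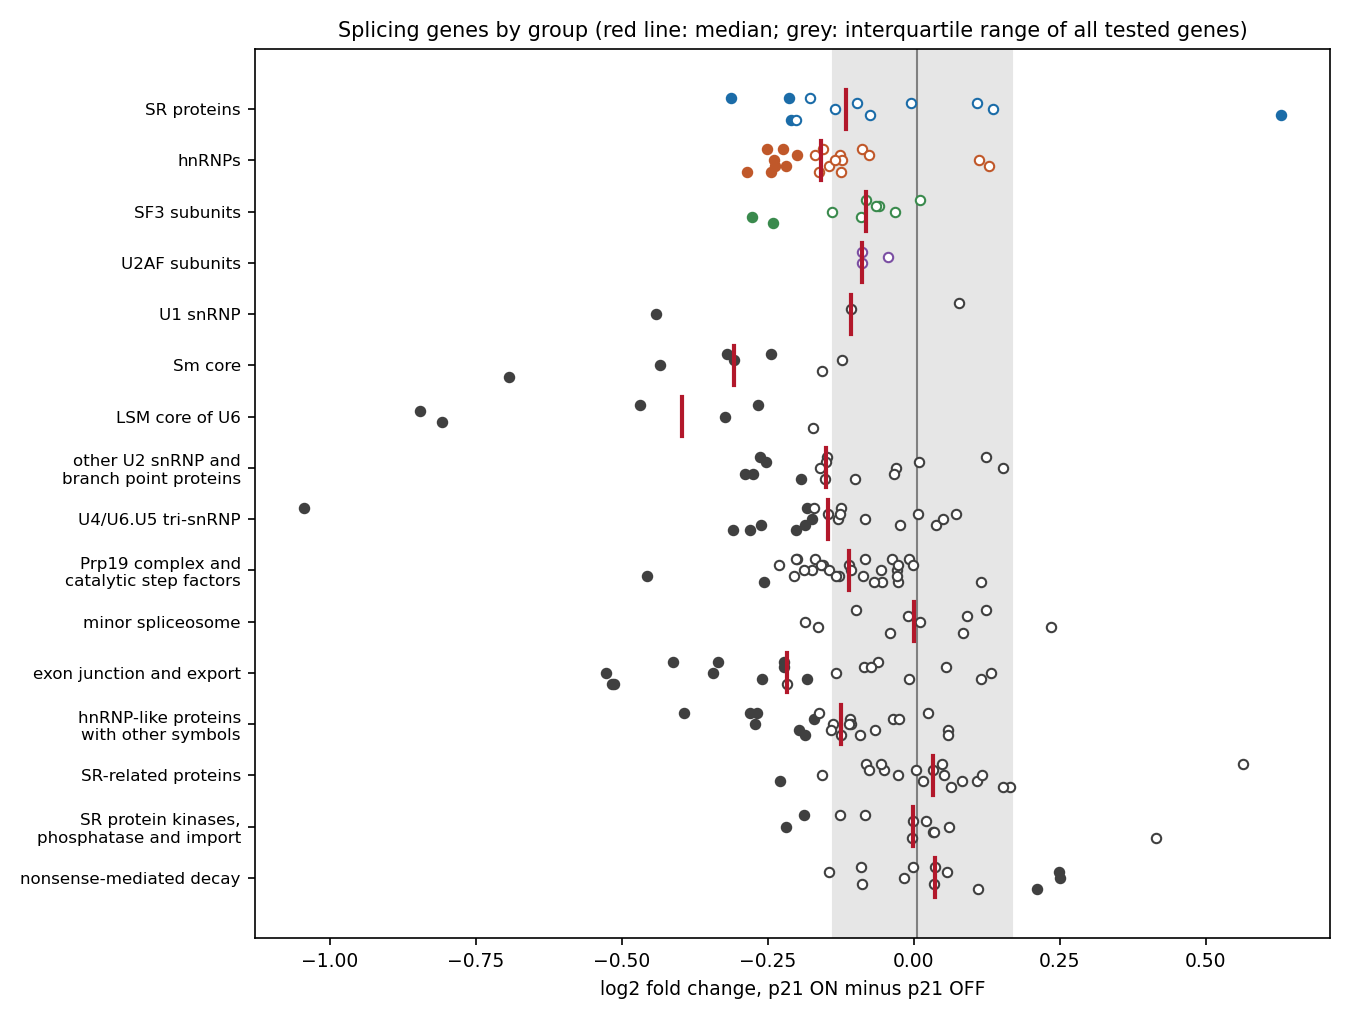
Log2 fold change, p21 ON minus p21 OFF (horizontal axis), of each tested gene in the 4 member groups (coloured) and in the other splicing lists (dark grey); filled points passed an adjusted p under 0.05, red lines are list medians and the grey band is the interquartile range of all tested genes. The Sm, LSM and exon junction lists have the lowest medians. The hnRNP median, -0.16, is close to those of the other U2 snRNP and tri-snRNP lists, -0.15 in each. The minor spliceosome, SR-related and nonsense-mediated decay lists lie around 0.

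Among RNA-binding proteins close to the members but with other symbols, 7 of 21 fell (33.3%, against 12.7% of all genes tested) and 14 were not called. The median of the 21 was -0.13. ILF2 went from 11816 ± 993 to 8979.6 ± 326 (SD, n = 3 each; log2 fold change -0.39, adjusted p = 0.000347, limma), and RBMX, also known as hnRNP G, had -0.28 (adjusted p = 0.00283). With the length trend removed, 11 of 20 were called lower, while library size scaling gave 4 of 21 and leaving out a library 4 to 10.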

How the data were processed

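Polyadenylated RNA of 6 SaOS-2 libraries was sequenced with a stranded kit, in 1 lane, with single-end reads. Per the labels, the authors used STAR for mapping (hg19), HTSeq for counts by gene name and DESeq2 for normalization. The deposited signal values are normalized counts, and all were whole multiples of the value of 1 read in their library within 0.01 of a step, so reads were recovered. Samples were grouped by title. log2(normalized count + 1) was fitted with limma 3.58.1 in R 4.3.3 (trended variance, no covariates), for the 13255 genes whose mean reached 10, and p-values were adjusted over all of them (Benjamini-Hochberg). edgeR 4.0.16 (quasi-likelihood) and DESeq2 1.42.0 on recovered reads, library size and TMM scaling, pseudocounts of 0.1 and 10, no filter, at least 10 reads in every library, a replicate block, removal of the trend with transcript length, and leaving out each library were the alternatives. Gene positions and lengths came from GENCODE on GRCh37, and all 47 genes matched. Named in full were called members by family, those of the study's G1/S list, the highest per kb in each family, and in other lists the called genes with the 2 largest changes each way. Members and lists were chosen with earlier results of these data known. Other members are named beside these.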

Additional observations from a re-analysis of the deposited data

How the results depend on the processing

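Direction and size of the member changes were kept under most of the 16 alternatives, and the calls less so. The median log2 fold change of the members was -0.086 under scaling by library size alone and between -0.14 and -0.12 when each library was left out. Under library size scaling 2034 genes were called higher and 1194 lower, against 1393 and 1681, with 2 members and 1 other spliceosome gene called higher. That scaling moved the median of all genes to 0.049. With the length trend removed, 2 members were called higher and 20 lower, 2 other spliceosome genes were called higher, and the value of SMG1 turned to -0.00085. Leaving out 1 library gave 695 to 1486 genes higher and 887 to 1660 lower, 0 to 2 members higher and 5 to 16 lower, and 0 to 1 other spliceosome genes higher and 10 to 27 lower. The lowest counts came without p21 ON replicate 1 (695 higher, 887 lower, 10 spliceosome genes lower), then without p21 ON replicate 3 (739, 1077 and 14). Fewer libraries also widen the intervals. The replicate block gave 1407 genes higher and 1513 lower, with 1 member higher and 14 lower. Libraries with the same number did not deviate together (correlations of their deviations from the group means -0.057, -0.025 and -0.048). Such correlations cannot settle whether libraries with the same number were handled together, which the labels do not state. On recovered reads edgeR called 1401 genes higher and 1647 lower and DESeq2 1112 and 1406. The cause of these shifts was not tested. With 3 libraries a group, the smallest fall of a member called in the main limma fit was 12.9%. The same fit called smaller changes in other lists, such as PRPF31 of the tri-snRNP with -11.3%. Other fits called smaller falls of members, such as HNRNPA2B1 by DESeq2.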

Other observations

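The exon junction complex and mRNA export factors package the spliced transcript. Of 19 such genes 10 fell and 9 were not called (limma, adjusted p under 0.05, where 12.7% of all genes fell), and 6 fell without p21 ON replicate 2, 7 without p21 ON replicate 1 and 7 under library size scaling. The median was -0.22 on the log2 scale, and 9 were called with the length trend removed. DDX39A, a helicase of the export pathway, had 1703, 1515 and 1415 with p21 OFF and 1058, 1031 and 1117 with p21 ON normalized counts, a log2 fold change of -0.53 (adjusted p = 4.5e-05, limma), and every p21 ON library lay below every p21 OFF library. RBM8A, a core protein of the exon junction complex, had 2649.9, 2316 and 2357 with p21 OFF and 1573, 1824 and 1721 with p21 ON, a log2 fold change of -0.52 (adjusted p = 4.11e-05, limma).

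Of 19 SR-related proteins 1 fell (5.26%, where 12.7% of all genes fell), and the median was 0.032. The gene was TRA2B, a splicing activator of Drosophila Transformer-2 type, with -0.23 (adjusted p = 0.0105, limma). TRA2B was not called without p21 ON replicate 1 or without p21 ON replicate 3, and library size scaling called 2 of the 19 higher. Of the 11 kinases, phosphatase and import factors that act on SR proteins 2 fell (18.2%, where 12.7% of all genes fell). These were CLK3 with -0.22 and PPP1R8 with -0.19, and the median of the 11 was -0.0018. Under library size scaling and with the replicate block 0 fell and 1 was higher, DESeq2 called 1 lower, and 0 fell when p21 OFF replicate 2, or replicate 1 or 3 of p21 ON, was left out. Of the 12 factors of nonsense-mediated decay, which removes poison exon transcripts, 3 rose (10.5% of all genes rose), with SMG1, the kinase of the pathway, at 0.25 (adjusted p = 0.0416, limma) and NBAS at 0.25 (adjusted p = 0.0456, limma). The count was 1 by DESeq2, 1 with the replicate block, 0 without p21 ON replicate 1 and 1 or 2 without any other single library. With the length trend removed 0 rose and 1 was called lower. How these lists differ from each other was not tested.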
